A study of Caenorhabditis elegans with 92 samples.

Results

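The condensin II sites of the X chromosome numbered 202, of 1163 condensin II sites on all chromosomes. They were chosen by the overlap of the wild-type embryo peak lists of the condensin II subunits KLE-2, HCP-6 and CAPG-2. A site is every run of adjacent bases covered by peaks of at least 2 of these 3 lists. The other 961 sites lay on the 5 autosomes and are the first set the X sites were compared with. The second set was made in the same way from the condensin I subunits DPY-26, DPY-28 and CAPG-1, which gave 1605 sites on the X, of which 1415 shared no base with a condensin II site. The number, width, subunit make-up and KLE-2, HCP-6 and CAPG-2 scores of the sites follow from the rule and are given as description.

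Chromatin immunoprecipitation followed by sequencing (ChIP-seq) was done on sdc-2 mutant embryos, wild-type L3 larvae and wild-type embryos of Caenorhabditis elegans. The mutant strain TY1072 carries her-1(e1520) on chromosome V and sdc-2(y74) on the X, a null allele. Its embryos are genetically male and tetraploid (AAAA XX), so that the X is present in fewer copies than each autosome. The L3 larvae and the mixed-stage wild-type embryos were of the N2 strain, and embryos were crosslinked with formaldehyde and were not separated by stage. Each of the 17 peak lists was pooled by the authors from 2 to 5 libraries. The lists give 1 score per peak and no read counts, so the depth of the libraries and the spread between replicates could not be derived from them. No test was therefore possible between X and autosomal sites, and shares are given with exact (Clopper-Pearson) 95% intervals that cover counting error only. Coordinates are those of the lists, build WS220, counted from 1.

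Condensins are ring-shaped complexes built on a pair of SMC ATPases. In C. elegans, condensin I and condensin II share MIX-1 and SMC-4. They differ in 3 regulatory subunits, which are DPY-26, DPY-28 and CAPG-1 in condensin I and KLE-2, HCP-6 and CAPG-2 in condensin II. In the dosage compensation condensin, condensin IDC, SMC-4 is exchanged for another SMC protein, DPY-27, and the complex is brought to the hermaphrodite X by SDC-2 to lower its transcription. DPY-26, DPY-28 and CAPG-1 peaks therefore cannot tell condensin I from condensin IDC and are written condensin I-IDC. SCC-2 (also named PQN-85) is the loader of cohesin, a related SMC complex, and AMA-1 is the large subunit of RNA polymerase II.

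The X sites were short and fairly uniform. Their width was 1281 bp at the median, 1146.5 to 1656.25 bp between the quartiles, and 757 to 4646 bp in all, against a median of 1206 bp at autosomal sites. Together they took up 304 kb, or 1.72% of the 17.7 Mb of the X. All 3 subunits had a peak at 90 sites, KLE-2 and HCP-6 alone at another 90, HCP-6 and CAPG-2 at 16 and KLE-2 and CAPG-2 at 6. The shortest subunit list, CAPG-2 with 124 X peaks, was therefore the one most often absent. The 3-subunit sites had a median width of 1415 bp and the 2-subunit sites of 1184.5 bp.

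Most X peaks of the 3 subunits lay inside sites. This was so for 185 of 236 KLE-2 peaks, 196 of 304 HCP-6 peaks and 113 of 124 CAPG-2 peaks. KLE-2 peaks had a median score of 717 inside sites and 399.65 outside, HCP-6 peaks of 724 inside and 256 outside, and CAPG-2 peaks of 363 inside and 246 outside. The score is the one given by the peak caller, a scaled negative logarithm of its p-value that ran from 100.09 to a ceiling of 3100 over the lists. Of the 51 KLE-2, 108 HCP-6 and 11 CAPG-2 peaks outside, 43, 102 and 11 overlapped a condensin I-IDC site.

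Nearly all X sites also carried the condensin I-IDC subunits. CAPG-1 had a peak at 199 sites, DPY-28 at 192, DPY-26 at 189 and DPY-27 at 185, and all 4 had one at 178. At autosomal condensin II sites none of these 4 subunits passed 5.83%, the share of CAPG-1. Peaks of DPY-26 and DPY-27 covered 38.1% and 37.5% of the X, those of DPY-28 20.1% and those of CAPG-1 16.1%. Such a share is how often a single base placed on the X would meet a peak. A stretch as wide as a site would meet one more often, here and for the other lists below. At the 1415 condensin I-IDC sites without condensin II the share of CAPG-1 was 82.8% and that of DPY-28 81.1%, but these 2 lists helped to define those sites. DPY-27, which did not, was at 91.6% (86.9 to 95.02) of the condensin II sites and at 91.1% (89.5 to 92.5) of the condensin I-IDC sites without condensin II, so that these intervals overlapped.

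MIX-1, SMC-4 and SCC-2 peaks were more frequent at the X condensin II sites than at the other condensin I-IDC sites of the X. MIX-1 and SMC-4 belong to condensin II, so for them this difference follows in part from how the sets were made. The X sets were also not matched for score. CAPG-1 peaks of the X had a median score of 3100 at condensin II sites and 483 elsewhere. The part of score in the shares of these 3 proteins was not tested. MIX-1, the SMC protein of all 3 condensins, had a peak at 193 X sites (95.5%, 91.7 to 97.9), at 32.0% (29.1 to 35.1) of autosomal condensin II sites and at 48.8% (46.1 to 51.4) of the X condensin I-IDC sites without condensin II. SMC-4, which condensin IDC lacks, had one at 159 X sites (78.7%, 72.4 to 84.1), against 44.8% (41.7 to 48.1) of autosomal sites and 5.30% (4.19 to 6.60) of the other condensin I-IDC sites. SCC-2 followed the same order, with 162 X sites (80.2%, 74.0 to 85.5), 56.5% (53.3 to 59.7) of autosomal sites and 8.27% (6.89 to 9.83) of the other condensin I-IDC sites. None of these 3 intervals overlapped those of the other 2 sets. The SMC-4 list covered 2.27% of the X and the SCC-2 list 2.79%. X and autosomal peaks numbered 945 and 444 for MIX-1, 240 and 539 for SMC-4, and 297 and 870 for SCC-2. The part of these whole-list numbers in the X and autosomal site shares was not tested.

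RNA polymerase II went the other way. AMA-1 had a peak at 49 X sites (24.3%, 18.5 to 30.8), against 385 autosomal sites (40.1%, 36.9 to 43.2), 11.7% (10.1 to 13.5) of the other X condensin I-IDC sites and 5.19% of X bases. The X sites were thus poorer in AMA-1 than the autosomal condensin II sites. They were richer than the other condensin I-IDC sites, and neither pair of intervals overlapped. The whole AMA-1 list had 305 peaks on the X and 2158 on the autosomes, and its part in these site shares was not tested. IgG, the antibody control, had peaks at 2 X sites, chrX:6295323-6297282 and chrX:14524982-14526953, and at 18 autosomal sites. Both X sites had the ceiling score in every condensin list and in SCC-2, while their IgG scores were 125.7 and 156.24.

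**Figure D1:**
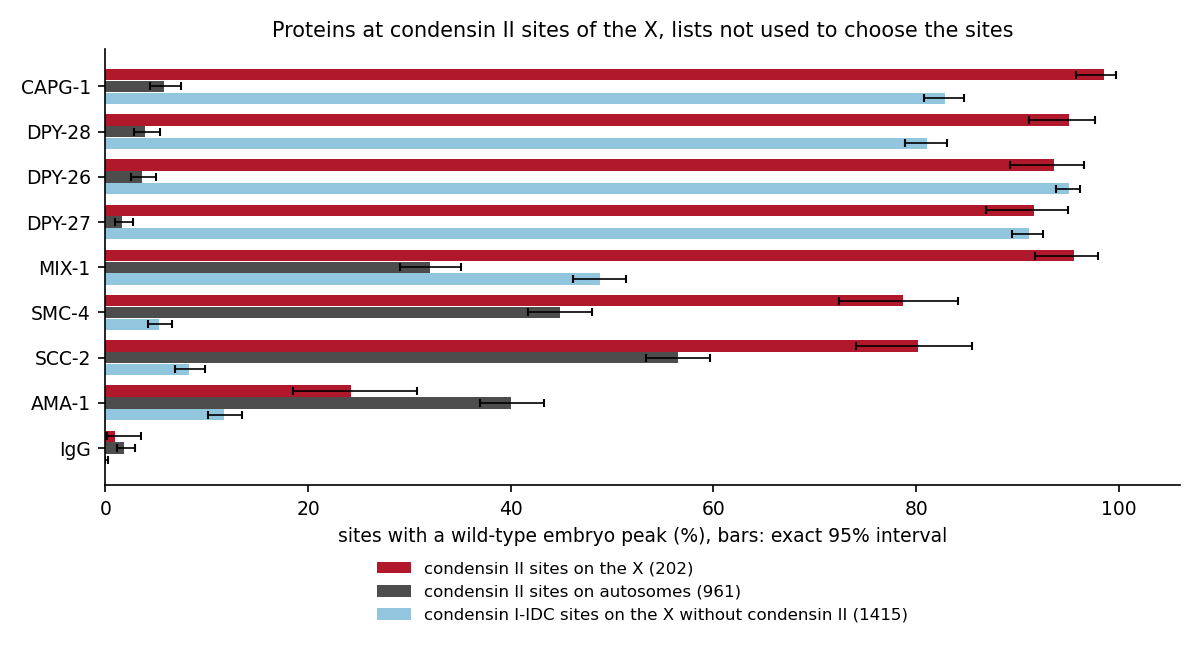
Percent of sites with a wild-type embryo peak of each protein that the rule did not use (horizontal axis, bars from 0 with exact 95% intervals), for the 202 condensin II sites of the X, the 961 autosomal ones and the 1415 X condensin I-IDC sites without condensin II. SMC-4 and SCC-2 reached 78.7% and 80.2% at the X condensin II sites, above both other sets, whereas AMA-1 at 24.3% lay below the autosomal 40.1%.

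Across the lists, 95 sites carried the same 7 of the 9 lists that the rule did not use, namely the 4 condensin I-IDC subunits, MIX-1, SMC-4 and SCC-2. Another 33 sites carried these and AMA-1. The next most frequent pattern, at 20 sites, was the 4 condensin I-IDC subunits with MIX-1 but neither SMC-4 nor SCC-2. All 9 condensin subunits had a peak at 76 X sites and 8 of them at 74, whereas at the autosomal sites 5 had all 9 and 330 had no more than 2.

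SMC-4 and SCC-2 occurred together. SMC-4 had a peak at 144 of the 162 X sites with SCC-2 (88.9%, 83.01 to 93.3) and at 15 of the 40 without (37.5%, 22.7 to 54.2). At autosomal sites the shares were 64.5% (60.3 to 68.5) with SCC-2 and 19.4% (15.7 to 23.5) without. Both proteins were more frequent where all 3 condensin II subunits had peaks. At 3-subunit X sites SMC-4 and SCC-2 were each present at 85 of 90 (94.4%, 87.5 to 98.2), and at 2-subunit sites SMC-4 was present at 74 of 112 (66.1%, 56.5 to 74.8) and SCC-2 at 77 of 112 (68.8%, 59.3 to 77.2). The intervals of AMA-1 on the X overlapped, with 32.2% (22.8 to 42.9) of 3-subunit sites and 17.9% (11.3 to 26.2) of 2-subunit sites. Autosomal 3-subunit and 2-subunit sites had SMC-4 at 68.3% (63.5 to 72.8) and 27.6% (23.9 to 31.5). There SCC-2 was at 70.8% (66.1 to 75.1) and 46.0% (41.8 to 50.3), and AMA-1 at 50.9% (45.9 to 55.8) and 32.1% (28.3 to 36.2).

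The lists also differed in how their peaks lay around a site. The centre of the highest SMC-4 peak was 31 bp from the site centre at the median, that of SCC-2 44 bp and that of CAPG-1 131.5 bp. The offsets were larger for MIX-1 (170 bp), DPY-28 (349.5 bp), DPY-27 (593 bp), DPY-26 (643 bp) and AMA-1 (889 bp). At 2 kb from the centre, averaged over both sides, DPY-27 peaks covered 54.7% of sites and DPY-26 peaks 50.2%, while SMC-4 covered 6.44% and SCC-2 7.18%. The condensin II peaks, which the rule used, covered 3.22% to 4.95% at that distance. Any peak of a list counts here, also one that does not touch the site. DPY-27 and DPY-26 peaks covered 37.5% and 38.1% of the whole X, SMC-4 peaks 2.27% and SCC-2 peaks 2.79%. DPY-27 peaks that touched a site were 4366.5 bp wide at the median and those elsewhere on the X 2155 bp, and DPY-26 peaks were 3714 bp at sites and 2114 bp elsewhere. A wide peak is more likely than a narrow one to share a base with a site. The part of this in the widths was not tested.

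**Figure D2:**
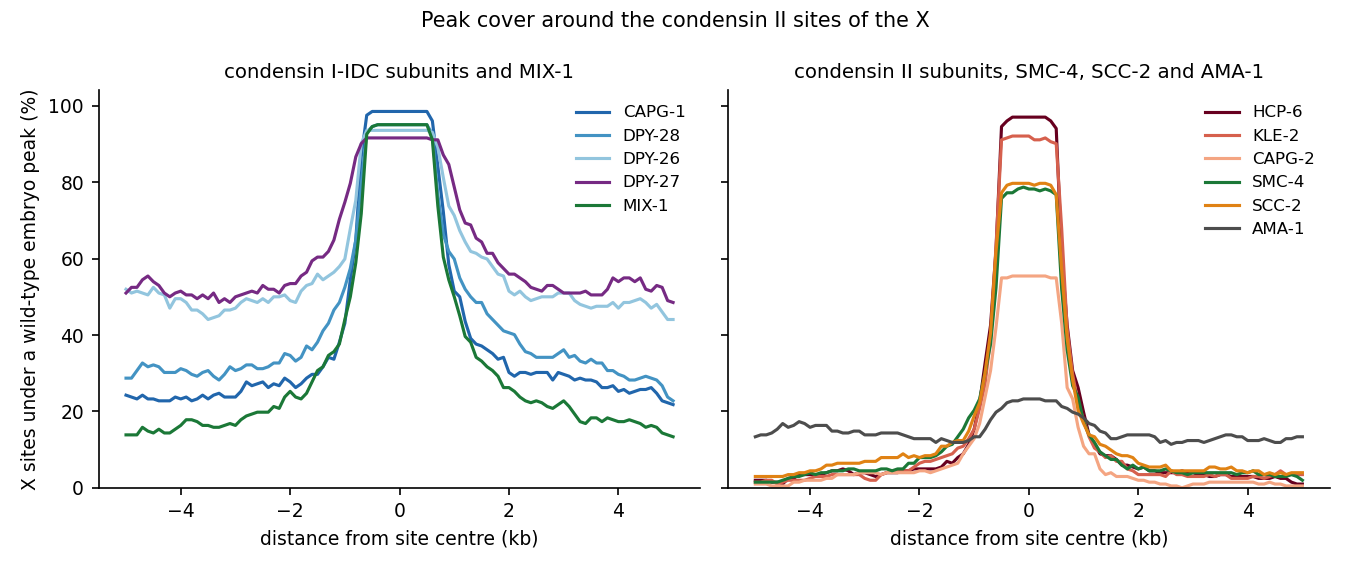
Percent of the 202 X sites under a wild-type embryo peak (vertical axis) at each distance from the site centre in kb (horizontal axis), with the condensin I-IDC subunits and MIX-1 on the left and the condensin II subunits, SMC-4, SCC-2 and AMA-1 on the right. At 5 kb DPY-27 and DPY-26 covered 49.8% and 48.0% of the sites, and SCC-2 and SMC-4 covered 3.47% and 1.73%. Any peak of a list counts, also one that does not touch the site.

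Peaks at the sites had high scores within their lists. The best DPY-26 peak had the ceiling score of 3100 at 164 of 189 sites, DPY-27 at 168 of 185, DPY-28 at 134 of 192, CAPG-1 at 116 of 199 and MIX-1 at 102 of 193. Counted over X peaks, 86.3% of the DPY-26 peaks at sites were at the ceiling and 15.8% of those elsewhere. For CAPG-1 these shares were 57.1% at sites and 3.17% elsewhere, and for MIX-1 52.4% and 4.76%. All 21 SCC-2 and all 17 SMC-4 peaks of the X with a ceiling score lay at sites.

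In lists with few ceiling scores the sites spread over the whole range. The best SCC-2 peak ranked at percentile 72.1 of the X peaks at the median, and the best SMC-4 peak at 63.5. The X peaks with the top 25% of scores fell at sites in 73 of 75 cases for SCC-2, in 59 of 60 for SMC-4 and in 30 of 77 for AMA-1, and the remaining X peaks in 89 of 222 cases for SCC-2, 101 of 180 for SMC-4 and 19 of 228 for AMA-1. Across sites with peaks of both, the Spearman correlation of the scores was 0.68 between KLE-2 and SCC-2 (150 sites) and 0.67 between SMC-4 and SCC-2 (144 sites). Between HCP-6 and AMA-1 it was 0.08 (48 sites). These sites share the same libraries, embryo chromatin and chromosome, and the values are a description. The median SCC-2 score was 864 at the 42 sites that also had AMA-1 and 598 at the 120 that did not.

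**Figure D3:**
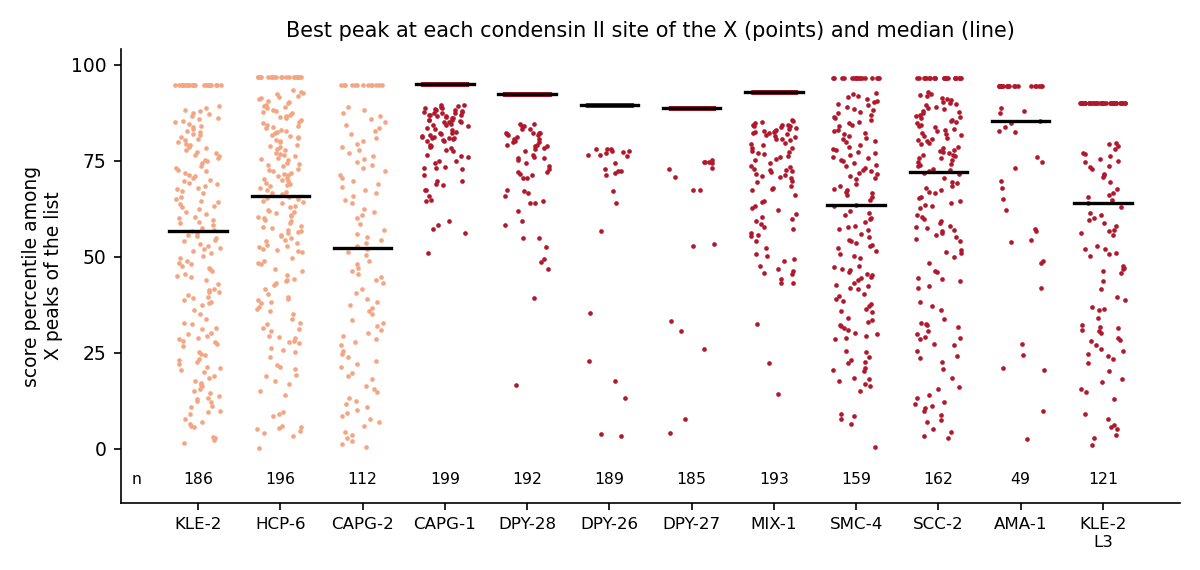
Percentile of the best peak at each X site among the X peaks of its list (vertical axis), one point per site, with the median as a line, the number of sites below, and the 3 lists used by the rule in a lighter shade. The medians of CAPG-1, DPY-28, DPY-26, DPY-27 and MIX-1 coincide with the tied rank of the ceiling score, whereas SCC-2 had its median at 72.1 and SMC-4 at 63.5.

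The sites were spread along the whole X with uneven gaps. The gap between neighbours was 63.9 kb at the median, with quartiles of 21.97 and 113.8 kb. The medians of the 5 autosomes ran from 41.7 kb on chromosome I to 91.1 kb on chromosome V. Between neighbouring condensin II sites lay 5 other condensin I-IDC sites at the median, and none in 27 of the 201 gaps. The longest gap, 769.9 kb, lay between chrX:6295323-6297282 and chrX:7067178-7069055 and held 51 condensin I-IDC sites. The next gaps measured 564.9 kb (chrX:3127109-3128877 to chrX:3693751-3694956) and 388.2 kb (chrX:8835348-8836628 to chrX:9224798-9225998) and held 45 and 29. Counted per Mb, the sites ranged between 4, in the Mb starting at 3 Mb and in the one starting at 6 Mb, and 17, in the Mb starting at 1 Mb. The variance of the counts over the 17 full Mb was 1.04 times their mean of 11.4.

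Close neighbours were a minority. On the X, 29 gaps were under 10 kb (14.4%), the lowest share of the 6 chromosomes, whose other values ran from 15.1% to 23.7%. These gaps joined 25 pairs and 2 groups of 3 sites. The shortest gaps were 161 bp (chrX:15273677-15276206 and chrX:15276368-15278164), 181 bp (chrX:4335805-4337732 and chrX:4337914-4339576) and 410 bp (chrX:1222090-1223093 and chrX:1223504-1224580). Some neighbours shared a peak, since 2 embryo KLE-2 peaks, 1 SCC-2 peak and 1 L3 KLE-2 peak each covered more than 1 site. Close neighbours did not always carry the same proteins. Among the 29 neighbouring pairs SCC-2 was at both sites in 18 and at 1 of them in 9, and L3 KLE-2 was at both in 6 and at 1 in 19.

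In L3 larvae KLE-2 was found at fewer of the X sites than of the autosomal ones. A peak was present at 121 X sites. Of the 186 X sites with an embryo KLE-2 peak, 110 also had an L3 peak (59.1%, 51.7 to 66.3), against 693 of 886 autosomal sites (78.2%, 75.4 to 80.9) and 74.9% of the sites on all chromosomes. The autosomes ranged from 75.9% (V) to 80.3% (III), so that the X lay below each. The L3 list was longer, with 2424 peaks against 1474 in embryos, but on the X the numbers were 234 and 236. The L3 larvae also had 114 X peaks away from the sites, of which 85 overlapped a condensin I-IDC site and 22 neither such a site nor a single condensin II subunit.

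The X share was below the autosomal one in the 3 lower quartiles of the embryo score, with intervals that lay apart in the lowest and in the third. Sites were split by the quartiles of the whole embryo KLE-2 list. In the lowest quartile 4 of 33 X sites (12.1%, 3.4 to 28.2) had an L3 peak, against 105 of 161 autosomal sites (65.2%, 57.3 to 72.5). In the second the shares were 47.6% (32.0 to 63.6) on the X and 67.3% (60.4 to 73.7) on autosomes, and in the third 56.2% (41.2 to 70.5) and 79.4% (73.9 to 84.3). In the highest quartile the intervals overlapped, with 59 of 63 X sites (93.7%, 84.5 to 98.2) and 249 of 267 autosomal sites (93.3%, 89.6 to 96.0). All 22 X sites with a ceiling KLE-2 score in embryos had an L3 peak. L3 peaks were at 72.2% (61.8 to 81.1) of 3-subunit X sites and 50.0% (40.4 to 59.6) of 2-subunit ones. Autosomal sites had the same order, with 90.4% (87.1 to 93.1) and 68.1% (64.0 to 71.9). Within the highest embryo KLE-2 quartile the X intervals overlapped, with 46 of 47 (88.7 to 99.9%) and 13 of 16 (54.4 to 96.0%). By AMA-1 the intervals overlapped, with 69.4% (54.6 to 81.7) of X sites with an embryo AMA-1 peak and 56.9% (48.6 to 64.8) of those without.

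In sdc-2 mutant embryos few X sites had a condensin peak. The mutant lists were short on all chromosomes, with 88 peaks for DPY-26, 45 for HCP-6, 201 for KLE-2 and 315 for SCC-2, and the lower copy number of the X cannot be told apart from a loss of binding in a peak count. The few mutant X peaks lay mostly at the condensin II sites. These were 7 of 8 DPY-26 peaks, the single HCP-6 peak, 18 of 24 KLE-2 peaks and 59 of 69 SCC-2 peaks. On autosomes these lists had 80, 44, 177 and 246 peaks, and 75, 34, 136 and 211 condensin II sites had one. The wild-type HCP-6 and KLE-2 lists also helped to define the sites.

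DPY-26, present at 189 X sites in the wild type, had a mutant peak at 5 of them (2.65%, 0.86 to 6.07), against 17 of 35 autosomal sites (48.6%, 31.4 to 66.0) and 9.82% over all chromosomes. HCP-6 had a mutant peak at 1 of its 196 X sites (0.51%, 0.01 to 2.81), against 34 of 893 autosomal sites (3.81%, 2.65 to 5.28) and 3.21% over all. KLE-2 had one at 18 of its 186 X sites (9.68%, 5.84 to 14.9), against 134 of 886 autosomal sites (15.1%, 12.8 to 17.7) and 14.2% over all. SCC-2 had one at 55 of its 162 X sites (34.0%, 26.7 to 41.8), against 202 of 543 autosomal sites (37.2%, 33.1 to 41.4) and 36.5% over all. Among these 4 proteins the X and autosomal intervals lay apart for DPY-26, and those of the other 3 overlapped. Over all sites, with or without a wild-type peak, mutant DPY-26 was at 3.47% (1.404 to 7.01) of X and 7.80% (6.19 to 9.68) of autosomal sites, with overlapping intervals. Mutant scores were low. On the X the median was 208 for SCC-2 and 227 for KLE-2.

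X and autosomal sites parted at the top of the wild-type scores. In the highest quartile of the wild-type SCC-2 list, 42 of 83 X sites (50.6%, 39.4 to 61.8) had a mutant SCC-2 peak, against 144 of 198 autosomal sites (72.7%, 66.0 to 78.8). In the 3 lower quartiles the X shares were 5.88%, 15.4% and 22.2% and the autosomal ones 7.53%, 15.0% and 25%, with overlapping intervals. For KLE-2 the highest quartile had mutant peaks at 13 of 63 X sites (20.6%, 11.5 to 32.7) and 111 of 267 autosomal sites (41.6%, 35.6 to 47.7). For HCP-6 it had them at 1 of 73 X sites (1.37%, 0.03 to 7.40) and 34 of 290 autosomal sites (11.7%, 8.26 to 16.0). The autosomal mutant peaks were also held to a score of at least 200, about 2 times the lowest scores of the lists. This minimum was chosen after the values were seen and was not matched to the lower X copy number. The part of copy number in these shares was not tested. Under this minimum, the autosomal share over all sites with wild-type SCC-2 was 23.9%, below the 34.0% of the X. The highest SCC-2 quartile of autosomal sites kept 54.0% (46.8 to 61.1), the highest KLE-2 quartile 33.3% (27.7 to 39.3) and the highest HCP-6 quartile 7.93% (5.09 to 11.7). With this minimum on autosomal peaks alone, the X and autosomal intervals of the highest quartile overlapped for all 3 proteins. With the minimum on X peaks as well, the X shares were 30.1% (20.5 to 41.2) for SCC-2 and 14.3% (6.75 to 25.4) for KLE-2. These intervals lay apart from the autosomal ones, and those of HCP-6 overlapped (X 1.37%, 0.03 to 7.40).

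**Figure D4:**
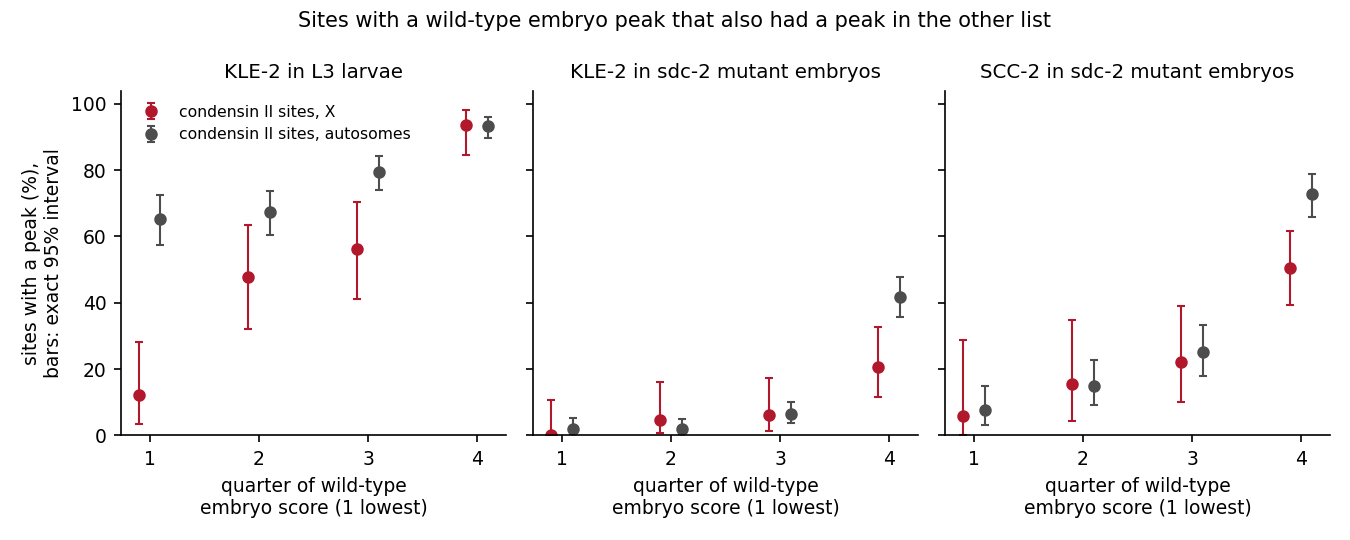
Percent of sites with a wild-type embryo peak that also had a peak of the same protein in L3 larvae or in sdc-2 mutant embryos (vertical axis, exact 95% intervals), by quartile of the wild-type embryo score (horizontal axis, 1 lowest), for X and autosomal condensin II sites. In L3 larvae the X lay below the autosomes in the lowest quartile (12.1% and 65.2%) and level with them in the highest (93.7% and 93.3%), whereas for mutant SCC-2 the gap was in the highest (50.6% and 72.7%).

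Sites at the ceiling were compared as well. Of the X sites with a wild-type SCC-2 score of 3100, 4 of 21 had a mutant SCC-2 peak (19.05%, 5.4 to 41.9), against 25 of 25 autosomal sites (100%, 86.3 to 100), of which 24 had a mutant score of at least 200. For ceiling KLE-2 scores mutant KLE-2 peaks were at 7 of 22 X sites (31.8%, 13.9 to 54.9) and 63 of 77 autosomal sites (81.8%, 71.4 to 89.7), or 71.4% at a score of at least 200. For ceiling HCP-6 scores the counts were 1 of 20 X sites and 30 of 72 autosomal sites. Below the ceiling, the X sites of the highest SCC-2 quartile had a mutant SCC-2 peak in 38 of 62 cases and the autosomal ones in 119 of 173.

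X sites with AMA-1 more often had a mutant SCC-2 peak. Of the X sites with wild-type SCC-2, mutant SCC-2 peaks were at 33 of 42 with AMA-1 (78.6%, 63.2 to 89.7) and 22 of 120 without (18.3%, 11.9 to 26.4). At autosomal sites the counts were 134 of 282 with AMA-1 (47.5%, 41.6 to 53.5) and 68 of 261 without (26.1%, 20.8 to 31.8). Within the highest SCC-2 quartile, the X sites had 24 of 28 with AMA-1 (85.7%, 67.3 to 96.0) and 18 of 55 without (32.7%, 20.7 to 46.7), and the autosomal sites 77.4% (69.0 to 84.4) with and 64.9% (52.9 to 75.6) without. X and autosomal sites with AMA-1 thus had overlapping intervals in this quartile, and those without AMA-1 did not. At the SCC-2 ceiling, 4 of 6 X sites with AMA-1 and 0 of 15 without had a mutant peak, against 21 of 21 and 4 of 4 autosomal sites. AMA-1 was thus at 6 of the 21 X sites and 21 of the 25 autosomal sites at this ceiling. For KLE-2 the X shares were 22.2% (11.2 to 37.1) with AMA-1 and 5.67% (2.48 to 10.9) without, and the autosomal ones 24.6% (20.2 to 29.4) and 8.59% (6.33 to 11.3). Within the highest KLE-2 quartile the X shares were 38.9% (17.3 to 64.3) with AMA-1 and 13.3% (5.05 to 26.8) without, with overlapping intervals. Mutant HCP-6 ran the other way at autosomal sites of the highest HCP-6 quartile, with 8.43% (4.69 to 13.7) of those with AMA-1 and 16.1% (10.1 to 23.8) of those without, and these intervals overlapped too. The AMA-1 peaks are those of wild-type embryos, and AMA-1 was not profiled in the mutant. X sites with AMA-1 were also wider, at a median of 1845 bp, against 1205 bp without, and the part of width in these shares was not tested.

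**Figure D5:**
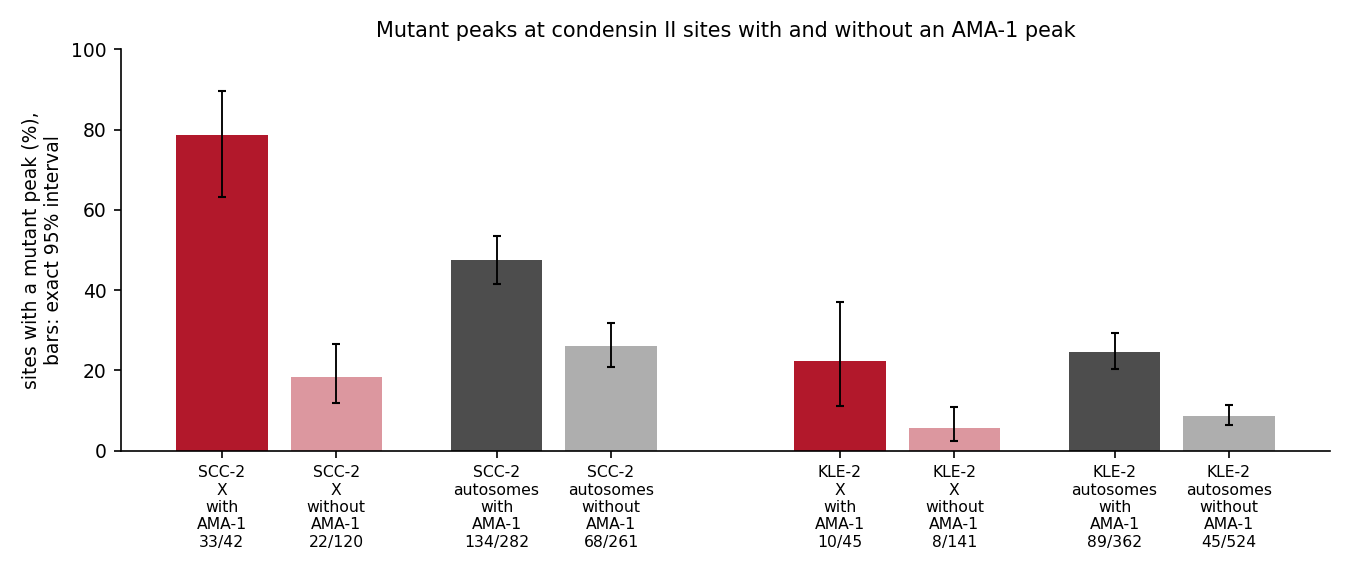
Percent of condensin II sites with a wild-type peak that also had a mutant peak of SCC-2 or KLE-2 (bars from 0, exact 95% intervals), by chromosome and by the presence of a wild-type AMA-1 peak, with the counts under each bar. On the X, SCC-2 was kept at 78.6% of sites with AMA-1 and 18.3% of those without.

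The 11 X sites at the ceiling in all 10 condensin and SCC-2 lists were a set picked after the values were seen. Their embryo KLE-2 score was part of that choice. All 11 had a ceiling KLE-2 score in L3 larvae, which 38 of all 202 X sites had. No mutant peak of any of the 4 proteins was present at 139 of the 202 X sites, and at 10 of these 11. Among these 10 were chrX:806083-807319, chrX:2996032-2997903, chrX:8035595-8037343 and chrX:16681199-16682852, which had no AMA-1 peak, and chrX:4207955-4210077 and chrX:6295323-6297282, with AMA-1 scores of 1449 and 308.03. The exception was chrX:11602833-11607478, the widest site with 4646 bp, whose AMA-1 score was 3100. Its mutant scores were 2745 for DPY-26, 349.75 for HCP-6, 894.62 for KLE-2 and 2708 for SCC-2, and it was the only X site with peaks of all 4.

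Any mutant peak was present at 63 X sites, of which 37 had AMA-1, against 12 of the 139 sites with none. SCC-2 alone accounted for 43 of the 63. At 15 sites at least 2 mutant lists had peaks, and 10 of these had AMA-1. The second and the third widest sites were among them, with mutant KLE-2 and SCC-2 scores of 442.56 and 494.22 at chrX:4960001-4964348 (4348 bp) and of 225.08 and 1200 at chrX:13142692-13146702 (4011 bp). The 3 widest sites all had a ceiling AMA-1 score.

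X sites were also split by whether all 4 condensin I-IDC subunits were present. Mutant KLE-2 peaks were at 7 of the 24 X sites that lacked at least 1 of the 4 subunits (29.2%, 12.6 to 51.1) and at 11 of the 178 with all 4 (6.18%, 3.12 to 10.8). Mutant SCC-2 peaks were at 14 of 24 (58.3%, 36.6 to 77.9) and at 44 of 178 (24.7%, 18.6 to 31.7), and mutant HCP-6 peaks at 0 of 24 and 1 of 178. Counted among the sites with a wild-type peak of the same protein, the shares for KLE-2 were 33.3% (14.6 to 57.0) and 6.67% (3.37 to 11.6), and those for SCC-2 were 64.7% (38.3 to 85.8) and 30.3% (23.0 to 38.5), whose intervals overlapped. Within the highest KLE-2 quartile the KLE-2 intervals overlapped as well, with 44.4% (13.7 to 78.8) and 16.7% (7.92 to 29.3). L3 KLE-2 peaks were at 58.3% (36.6 to 77.9) and 60.1% (52.5 to 67.4). AMA-1 was at 10 of the 24 sites (41.7%, 22.1 to 63.4) and at 39 of the 178 (21.9%, 16.1 to 28.7), and its part in these counts was not tested.

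Just 2 X sites had none of the 4 condensin I-IDC subunits, and both had KLE-2 peaks in all 3 KLE-2 lists. At chrX:1374814-1375743 (930 bp) the KLE-2 scores were 909.07 in the mutant, 171.41 in L3 larvae and 1675 in wild-type embryos, and none of the 9 lists that the rule did not use had a peak. At chrX:13795026-13795782, the narrowest site with 757 bp, they were 312.07 in the mutant, 106.57 in L3 larvae and 313 in wild-type embryos, and SCC-2 had a wild-type peak with a score of 225 and no mutant peak. The third narrowest site, chrX:13306480-13307482 (1003 bp), had all 4 subunits at the ceiling score. Its KLE-2 score was 198.67 in wild-type embryos, and it had no KLE-2 peak in the mutant or in L3 larvae.

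DPY-26 had mutant peaks at 7 X sites, of which 2 had no wild-type DPY-26 peak. At chrX:3127109-3128877, where CAPG-1 was the only condensin I-IDC subunit in the wild type, the mutant DPY-26 score was 129, and at chrX:12170972-12173114 it was 237. At autosomal condensin II sites DPY-26 likewise had mutant peaks at 58 sites with no wild-type peak. The remaining 5 X sites had mutant DPY-26 scores between 102.59, at chrX:14707684-14708958, and 2745. SCC-2 had mutant peaks at all 7.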

How the data were processed

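The authors mapped ChIP-seq reads with Bowtie 0.12.7 to WS220, called peaks with MACS against input on pooled libraries and kept peaks supported by most replicates. They state that mutant reads of the X and of the autosomes were handled separately, because the mutant had fewer reads from the X. The deposited lists give a peak score that ends at 3100. Scores depend on depth and on copy number, so ranks were compared within a list. The RNA FPKM tables were not used, and no deposited per-sample column was left unmapped (0). From the lists, sites, overlaps (at least 1 shared base), exact intervals, gaps and percentiles were computed in Python 3.11.15 with numpy 2.4.6, pandas 2.3.3 and scipy 1.17.1, and the interval code was checked on simulated intervals. Named sites were those with mutant peaks, without condensin I-IDC subunits or with IgG peaks, the 5 with most and fewest lists, the 3 widest and narrowest, and the ends of the 3 longest and shortest gaps. The sites at the ceiling in all 10 lists were named after their values were seen. The sites and comparisons were chosen with earlier results of these data known. The alternatives tried were other overlap, merging, width and score settings.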

Additional observations from a re-analysis of the deposited data

How the results depend on the processing

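Each list is pooled over its libraries, and leaving out a replicate was not possible. No paired analysis was possible because the lists carry no replicate values. Peak lists hold no read depth, and a missing peak is a score under the threshold of its list, not an absence of binding. Beyond the authors' separate handling of the X reads, the lower copy number of the X in the mutant was not corrected.

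Of 330 values recomputed under 11 alternatives, 146 did not change at all, many because the alternative does not touch them. Of the 184 that changed, 55 moved beyond the 95% interval of the value in the report (counts beyond 1.5 times). None moved when sites within 200 bp were merged, when sites under 200 bp were left out, when the centre base had to lie under a peak, when a mutant peak within 500 bp counted or when sites with an IgG peak were left out. This last alternative and the score minimum of 200 were chosen after seeing the data. Counting only the alternatives that changed a share, the X share was below the autosomal one for AMA-1 and L3 KLE-2 in 8 of 8, for mutant DPY-26 in 9 of 9 and for mutant HCP-6 and KLE-2 in 10 of 10, and above it for SMC-4 and SCC-2 in 8 of 8.

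With all 3 subunits required there were 92 X sites and 416 autosomal sites, and the median X gap was 140.8 kb. CAPG-1 was then at 100% of X sites, SMC-4 at 94.6% of X and 68.3% of autosomal sites, SCC-2 at 93.5% and 71.4%, and AMA-1 at 51.2% of autosomal sites. L3 KLE-2 was at 69.6% of X and 89.9% of autosomal sites, mutant HCP-6 at 6.01% and mutant KLE-2 at 25.5% of autosomal sites, and mutant SCC-2 at 43.0% of X and 49.5% of autosomal sites. The best SMC-4 and SCC-2 peaks ranked at percentiles 76.5 and 82.2.

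With the rule applied to peaks at or above the median score of each list there were 102 X sites, 1365.5 bp wide at the median and 118.6 kb apart, and 458 autosomal sites. SMC-4 was then at 91.2% of X and 69.2% of autosomal sites, SCC-2 at 89.2% and 72.5%, and AMA-1 at 52.0% of autosomal sites. L3 KLE-2 was at 80.6% of X and 89.5% of autosomal sites, mutant HCP-6 at 5.94% of autosomal sites, mutant KLE-2 at 15.3% of X and 27.5% of autosomal sites, and mutant SCC-2 at 45.1% and 53.6%. The SMC-4 and SCC-2 percentiles were 78.1 and 82.3.

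With the compared lists held to peaks at or above their median score, SMC-4 was at 54.0% of X and 25.4% of autosomal sites, SCC-2 at 58.9% and 34.3%, and AMA-1 at 33.4% of autosomal sites. L3 KLE-2 was at 33.9% of X and 56.7% of autosomal sites, mutant HCP-6 at 0% and 1.79%, mutant KLE-2 at 3.76% and 7.56%, and mutant SCC-2 at 15.4% and 21.5%. Where a peak had to cover at least 50% of a site, mutant HCP-6 was at 0% of X sites and mutant KLE-2 at 12.2% of autosomal sites. Ranked among all peaks of a list, the median percentiles were 95.2 for CAPG-1 and 94.7 for MIX-1.

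With autosomal mutant peaks held to a score of at least 200, autosomal shares were 2.58% for HCP-6, 10.8% for KLE-2 and 23.9% for SCC-2. For mutant SCC-2 the X share was below the autosomal one in 9 of the 10 alternatives that changed a share and above it in this one.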
